A study of Homo sapiens with 14 samples.

Results

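The genes described here encode 3 neuropeptides and 4 of their receptors: the ligands CCK, NPY and GRP, and the receptors CCKBR, NPY1R, NPY5R and GRPR. They were chosen by name from the human gene annotation, as 7 of the 19970 protein-coding genes on the 22 autosomes and X. Around each gene body, with 10 kb and then 50 kb added on either side, every peak region of 10 CUT&RUN lists was collected and the sequence at FLI1 summits was read.

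CUT&RUN releases DNA fragments by cutting chromatin beside an antibody bound to its target, so that a peak marks where the target sits. All 14 libraries came from untreated TC-32 cells (titled WT), a long-established line of Ewing sarcoma with the EWSR1::FLI1 fusion. The antibody to FLI1 was used in 4 libraries, replicates 1 and 2 of a set named A and of a set named B. H3K27ac, a mark of active promoters and enhancers, was profiled in 2 libraries of set A. H3K9me3 and H3K27me3, marks of heterochromatin and of Polycomb repression, were profiled in 2 libraries each of set B. The 4 remaining libraries were IgG controls. The labels do not say how the sets differ, nor that replicates came from separate cultures. TC-32 is 1 line, and RNA was not measured in the files used here. The loci of 6 genes known as EWSR1::FLI1 targets or Ewing sarcoma markers (NR0B1, CCND1, NKX2-2, STEAP1, LIPI and CAV1) were also read. A FLI1 region lay within 10 kb in all 4 libraries at 6 of 6, beside 56.3% of all genes. A rule that so many genes meet says little about the cell label.

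Neuropeptides are cut from longer precursors in secretory granules and act on G protein-coupled receptors of the same or neighbouring cells. Cholecystokinin, the product of CCK, signals through CCKBR in the brain and stomach, while neuropeptide Y acts through NPY1R and NPY5R among other receptors. Gastrin-releasing peptide, from GRP, is the mammalian bombesin and binds GRPR. Ewing sarcoma cells are known to make several of these peptides. EWSR1::FLI1 keeps the ETS DNA-binding domain of FLI1, which recognises a GGAA core, and it is known for binding runs of repeated GGAA units (microsatellites) as well as single sites.

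The sequences that the FLI1 results turn on are printed first, from hg38, 5′ to 3′ on the strand named, with every GGAA or TTCC in capitals. TTCC is GGAA read on the other strand. CCK is shown on its own strand in 2 pieces, which hold its repeat. For GRP, the upstream summit found in all 4 libraries is set beside a downstream repeat found in set A. The loci of CCKBR, NPY and the NPY1R-NPY5R pair show regions of all 4 libraries without a long repeat.
CCK repeat, upstream part, chr3:42266601-42266900, minus strand: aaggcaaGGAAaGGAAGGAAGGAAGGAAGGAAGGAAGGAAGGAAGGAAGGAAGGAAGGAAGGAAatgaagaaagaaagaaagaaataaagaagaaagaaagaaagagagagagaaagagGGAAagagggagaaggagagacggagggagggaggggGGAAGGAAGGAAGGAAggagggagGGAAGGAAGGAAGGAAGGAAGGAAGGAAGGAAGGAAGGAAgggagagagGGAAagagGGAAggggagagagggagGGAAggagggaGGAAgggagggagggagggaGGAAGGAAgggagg
CCK repeat, part nearest the start, chr3:42266517-42266580, minus strand: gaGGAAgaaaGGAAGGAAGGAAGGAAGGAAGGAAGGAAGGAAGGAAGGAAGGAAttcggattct
GRP upstream summit, chr18:59207834-59207954, plus strand: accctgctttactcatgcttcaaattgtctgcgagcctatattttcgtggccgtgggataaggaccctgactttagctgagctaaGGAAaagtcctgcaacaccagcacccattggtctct
GRP downstream repeat, chr18:59245609-59245724, plus strand: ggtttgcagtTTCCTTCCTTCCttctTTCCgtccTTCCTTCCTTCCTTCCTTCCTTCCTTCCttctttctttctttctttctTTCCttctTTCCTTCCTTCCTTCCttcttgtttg
NPY upstream locus, chr7:24247108-24247208, plus strand: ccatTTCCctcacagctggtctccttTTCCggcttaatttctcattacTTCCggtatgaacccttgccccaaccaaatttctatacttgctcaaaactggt
CCKBR upstream locus, chr11:6234880-6235122, plus strand: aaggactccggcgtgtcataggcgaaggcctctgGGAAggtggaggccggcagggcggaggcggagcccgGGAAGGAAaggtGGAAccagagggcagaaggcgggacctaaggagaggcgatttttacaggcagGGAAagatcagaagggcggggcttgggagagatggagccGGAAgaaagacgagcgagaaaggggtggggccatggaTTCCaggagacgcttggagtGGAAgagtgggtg
CCKBR downstream summit, chr11:6322334-6322454, plus strand: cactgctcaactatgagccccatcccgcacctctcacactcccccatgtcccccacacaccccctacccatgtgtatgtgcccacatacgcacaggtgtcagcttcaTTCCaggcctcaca
NPY1R and NPY5R shared locus, chr4:163392188-163392308, plus strand: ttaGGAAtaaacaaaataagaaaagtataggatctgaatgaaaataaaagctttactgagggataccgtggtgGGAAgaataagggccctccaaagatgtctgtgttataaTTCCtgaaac
The CCK pieces hold runs of 13, 4, 10 and 11 GGAA units. The GRP downstream piece holds a run of 7 TTCC units, while the CCKBR upstream locus reaches 2 units and the other printed summits 1 unit.

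Regions were called separately in each library, with 29339 to 40590 in the FLI1 lists, 10219 and 17366 in the H3K27ac lists, 21770 and 36687 in the H3K9me3 lists and 16667 and 21461 in the H3K27me3 lists. The files give no read totals, so depth is unknown, and a gene without a region is one where none was detected at this depth. The fold of a region is the authors' ratio of antibody to IgG signal. It is used here only within its own list, as a percentile of that list's folds. The libraries hold no second condition to test against, so each count is set beside the share of all 19970 genes that meet the same rule.

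Within 10 kb of the gene body, FLI1 regions were present in all 4 libraries at 2 of the 7 genes, CCK and GRP, against 56.3% of all genes. With 50 kb on either side the count was 6 of 7, every gene but GRPR, against 73.9% of all genes. These are 28.6% and 85.7% of the 7 genes, below the background near the gene bodies and close to it in the wider window. The wider count holds NPY1R and NPY5R through 1 shared locus, and it fell to 4 at a −log10 q-value of at least 10. Regions of at least 1 of the 4 libraries were found at 4 of 7 genes within 10 kb (76.5% of all genes) and at 7 of 7 within 50 kb (87.8%). The genes are short, with a median body of 10.6 kb against 27.5 kb for all genes, which makes their windows smaller. With windows of 10 kb around the start alone, the count was again 2 of 7, beside 43.2% of all genes. Within 1 kb of the start it was 1 of 7, CCK, beside 33.8% of all genes.

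**Figure D1:**
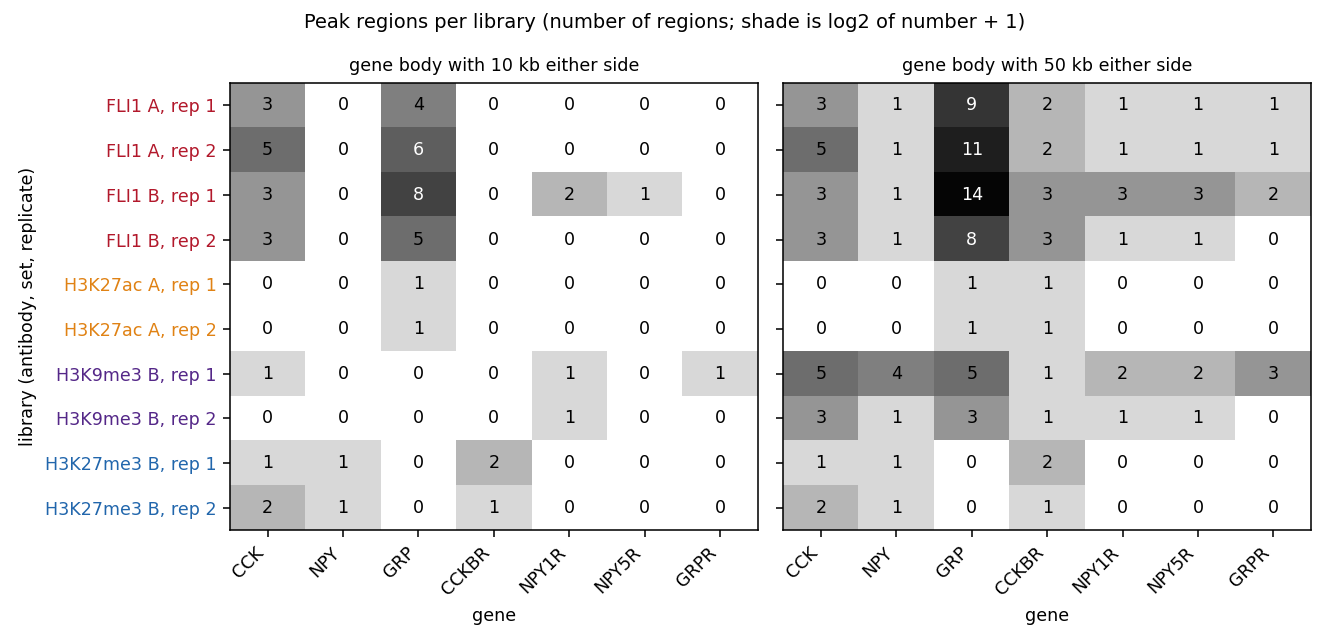
Number of peak regions in each of the 10 lists (vertical axis, by antibody, set and replicate) at each gene (horizontal axis), for the gene body with 10 kb (left) and 50 kb (right) on either side. GRP has 8 to 14 FLI1 regions per library within 50 kb and CCK 3 to 5, while GRPR has none in set B replicate 2.

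The lists of all 3 marks were sparse near gene starts. Over all genes, the median distance from a start to the nearest region was 77.5 and 46.5 kb for H3K27ac replicates 1 and 2. It was 53.9 and 85.8 kb for H3K9me3, and 141 and 191 kb for H3K27me3. Of the 6 marker loci, the H3K27ac lists held no region within 10 kb of NR0B1, CCND1 or NKX2-2. They held regions in both replicates within 10 kb of STEAP1, LIPI and CAV1. H3K27ac was found in both replicates within 10 kb at 1 of 7 genes, GRP (28.3% of all genes), and in neither replicate at the other 6 (54.8%). Within 50 kb it was found in both replicates at 2 of 7, GRP and CCKBR (44.8%). Within 1 kb of the gene start it was found in both replicates at 0 of 7, beside 11.3% of all genes. H3K27me3 was found in both replicates within 10 kb at 3 of 7 genes, CCK, NPY and CCKBR (17.6% of all genes), and the same 3 had it within 50 kb (29.4%) and within 1 kb of the start (9.47%). With a −log10 q-value of at least 5, the count within 10 kb fell to 1, NPY, so the CCK and CCKBR calls rest on regions of lower significance. The 4 other genes had H3K27me3 in neither replicate within 50 kb (63.5% of all genes). H3K9me3 was found in both replicates within 10 kb at 1 of 7, NPY1R (25.3%), and within 50 kb at 6 of 7, all but GRPR (44.5%). At a −log10 q-value of at least 5 these counts were 0 and 2. The wider count holds NPY1R and NPY5R through the same regions, and it was 5, without CCKBR, with windows around transcript starts. No gene had H3K9me3 in both replicates within 1 kb of its start (1.39%).

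Among the ligands, CCK stood out by its repeat. The gene (ENSG00000187094) lies on the minus strand at chr3:42257825-42266185. FLI1 regions within 10 kb of it numbered 3 and 5 for set A, then 3 and 3 for set B, beside a median of 1 per library over all genes. Widening the window to 50 kb added none, so all FLI1 regions near CCK were close to its start.

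The strongest CCK region had a fold of 24.9 in set A replicate 1 and 27.9 in set A replicate 2. In set B its fold was 15.7 in replicate 1 and 14.0 in replicate 2. Within their own lists these folds were at percentiles 94.0, 95.3, 84.4 and 83.1. The region was thus among the stronger ones in every library, and the 4 summits fell at -0.891, -0.901, -0.893 and -0.898 kb from the annotated start (negative is upstream, in the direction of the gene).

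The 4 regions, 1630 to 2304 bp wide, all held the same 4 runs of at least 4 GGAA units on the CCK strand. These were 11 units at chr3:42266527-42266570, 10 at chr3:42266681-42266720, 4 at chr3:42266729-42266744 and 13 at chr3:42266837-42266888. Together they hold 38 units over 362 bp, from 342 to 703 bp before the start. Each summit was 188 to 198 bp beyond the outermost run rather than inside it. The 31 bases at that summit match the genome 2, 2, 2 and 10 times in the 4 libraries, whereas the summits of the other regions in all 4 libraries near these genes each match once. The part of such repeated sequence in the CCK result was not tested.

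CCK was the only gene of the 7 with such a run within 250 bp of a FLI1 summit in all 4 libraries, beside 1.49% of all genes within 10 kb and 3.34% within 50 kb. With a limit of 100 bp the count was 0. With 250 bp, such regions of all 4 libraries reached within 1 kb of the start at 8 of 19970 genes (0.0401%), CCK included. Among all FLI1 regions, between 3.81% and 4.08% in each library had a run of this length within 250 bp of the summit. Across the genome, 22.6% of the 3321 runs of at least 10 units lay in FLI1 regions of all 4 libraries and 61.9% in none. Most repeats as long as those of CCK were thus in no FLI1 region.

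A further FLI1 region lay inside CCK, in an intron, with summits at 1.20 to 1.21 kb. Its fold was 8.77 in set A replicate 2, then 5.29 and 9.28 in replicates 1 and 2 of set B, and it was not called in set A replicate 1. Weaker regions flanked the repeat upstream at about -1.82 to -2.33 kb, with folds between 4.83 and 7.84, and set A replicate 2 had a weak region at 0.231 kb with fold 3.96.

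H3K27me3 covered the first part of CCK in both replicates, at chr3:42264602-42266079 with fold 4.67 and at chr3:42264655-42265929 with fold 4.40. These are weak to middling regions of their lists, at percentiles 47.8 and 23.0. Replicate 2 had a further region at chr3:42263407-42263810 with fold 4.91. Summed over the FLI1 regions of a library, the bases shared with the H3K27me3 regions ran from 497 to 1231 bp over the 8 pairs of lists. The repeat itself lies upstream of where both H3K27me3 regions end. In set A replicate 2 the repeat region also began beyond that end, and the shared bases came from the regions inside the gene.

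FLI1 in all 4 libraries together with H3K27me3 in both replicates was found within 10 kb at CCK alone of the 7 genes (5.88% of all genes). Within 1 kb of the start the same rule held for CCK and 0.13% of all genes. Both H3K27me3 calls at CCK were lost at a −log10 q-value of at least 5. Of all FLI1 regions, 0.214% to 0.508% per library shared a base with H3K27me3 regions of both replicates. These marks were profiled in set B and part of the FLI1 libraries in set A, on populations of cells, so regions that overlap need not be on the same DNA molecule. H3K27ac was far from CCK, with the nearest region 169 kb from the start in replicate 1 and 143 kb in replicate 2. H3K9me3 had 5 and 3 regions within 50 kb, none over the gene. The most distant of them, at chr3:42313436-42316675 in replicate 1 and chr3:42313452-42316494 in replicate 2, had the highest fold in replicate 1, 6.59, and a fold of 5.91 in replicate 2.

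**Figure D2:**
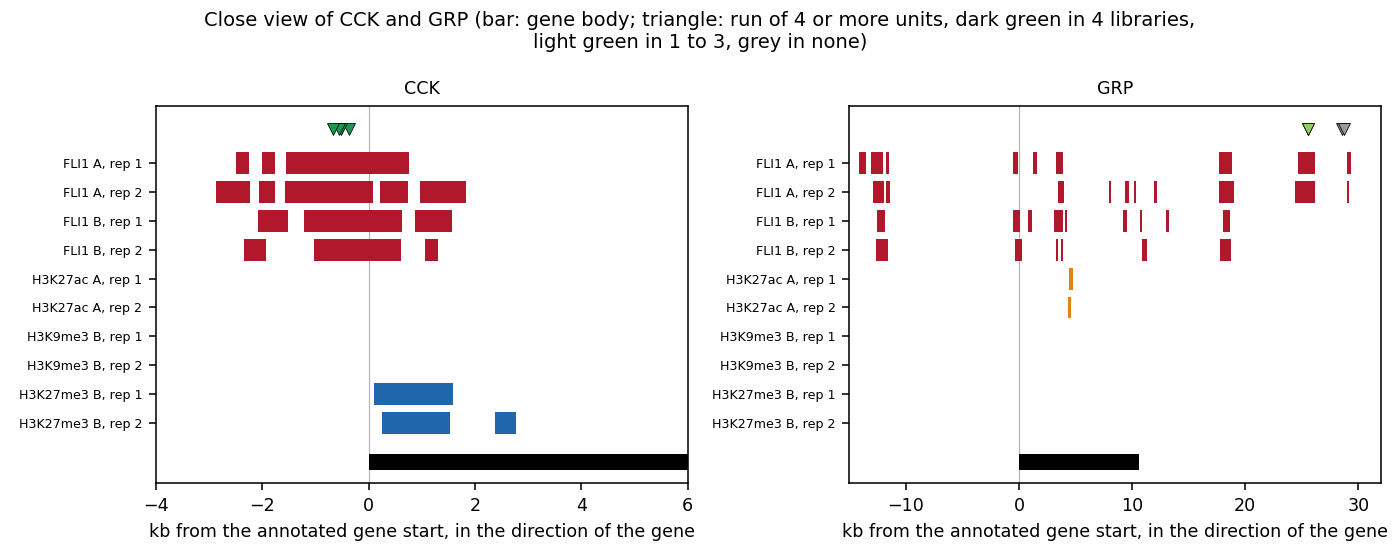
Peak regions of the 10 lists (rows, by antibody, set and replicate) near CCK and GRP, by distance in kb from the annotated gene start in the direction of the gene. At CCK the 4 FLI1 regions over the green triangles (runs of at least 4 units) end within the first kb of the gene, where H3K27me3 begins; at GRP the FLI1 regions are spread over the gene and both flanks, and H3K27ac is inside the gene.

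NPY (ENSG00000122585, plus strand, chr7:24284188-24291862) differed from CCK in its layout, with H3K27me3 over the start itself and FLI1 far from it. H3K27me3 covered the start in both replicates, at chr7:24283521-24285812 with fold 6.81 and at chr7:24283177-24285834 with fold 5.97. These are among the strongest regions of their lists, at percentiles 97.1 and 92.3, and cover 21.2% and 21.5% of the gene body. No FLI1 region was called within 10 kb in any library, and no H3K27ac region lay within 50 kb.

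The only FLI1 locus near NPY was at chr7:24246544-24247578, in an intron of the long non-coding RNA gene ENSG00000228944, with summits between -36.9 and -37.2 kb. Its fold was 6.85 and 11.1 for set A replicates 1 and 2, then 8.81 and 7.43 for set B. The percentiles, 49.8, 79.2, 56.4 and 43.0, place it near the middle of 3 lists. No run of GGAA longer than 1 unit was found at its summits. Instead, the motif CCGGAAGT, a consensus of ETS factors, was within 250 bp of the summit in all 4 libraries, as ACTTCCGG at chr7:24247154-24247161. That motif was found at 3.53% to 5.16% of all FLI1 summits. A run of 4 GGAA units at chr7:24315931-24315946, 31.7 kb past the NPY start, was in no FLI1 region. H3K9me3 had 4 regions within 50 kb in replicate 1 and 1 in replicate 2, all upstream.

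GRP (ENSG00000134443, plus strand, chr18:59220158-59230774) carried the most FLI1 regions of the 7 genes. Within 10 kb there were 4 and 6 for set A, then 8 and 5 for set B. Within 50 kb there were 9, 11, 14 and 8, against medians of 2 or 3 over all genes. Joined by overlap, those within 50 kb made 20 separate loci, of which 3 were in all 4 libraries, 2 in 3, 5 in 2 and 10 in a single library. Most of the 20 loci were thus not called in every library. Those at chr18:59271655-59272347 and chr18:59272845-59273780, in 2 and 3 libraries, lay in the neighbouring gene RAX.

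Of the 3 GRP loci in all 4 libraries, the one upstream, at chr18:59207097-59208746, had folds of 17.5 and 17.5 for set A but 11.0 and 3.54 for set B. Its percentiles were 88.9 and 89.9 in set A, then 69.9 and 0.975 in set B, so it was strong in set A and near the bottom of the list of set B replicate 2. Its longest run is 3 GGAA units, at chr18:59208166-59208177. The locus inside a GRP intron, at chr18:59223283-59224160, had folds of 6.17, 9.23, 4.41 and 6.58. The downstream locus, at chr18:59237815-59239178, had folds of 10.3, 11.1, 9.68 and 7.08. Its percentiles ran from 38.5 in set B replicate 2 to 78.7 in set A replicate 2.

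At the GRP start itself a FLI1 region was called in 3 libraries, with folds of 5.77 in set A replicate 1, then 8.80 and 8.16 in replicates 1 and 2 of set B. Its summits fell between -0.397 and -0.073 kb. It was not called in set A replicate 2, the library with the most FLI1 regions in all.

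The repeat downstream of GRP differed from the CCK repeat. A region over it, at chr18:59244565-59246325, was called in set A only, with folds of 13.5 and 18.6 at percentiles 83.2 and 90.9. Both set B lists lacked it, although set B replicate 1 had the most regions near GRP. Its summits were at 25.2 kb, and the longest run within 250 bp of them was 3 units. The 7 TTCC units at chr18:59245643-59245670 extend past that distance from both summits and so were not counted as at them. Runs of 4 units at chr18:59248718-59248733 and at chr18:59248881-59248896 were in no FLI1 region.

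GRP was also the 1 gene of 7 with FLI1 in all 4 libraries and H3K27ac in both replicates within 10 kb (24.2% of all genes). The H3K27ac region lay inside an intron, at chr18:59224608-59224940 with fold 4.74 and at chr18:59224512-59224746 with fold 4.50. These were below the median of their lists, at percentiles 42.2 and 34.6, and were lost at a −log10 q-value of at least 5. They shared no base with a FLI1 region, the gap to the nearest one being 89 to 566 bp over the 8 pairs of lists. No H3K27me3 region lay within 50 kb. H3K9me3 had 5 regions in replicate 1 and 3 in replicate 2 within 50 kb, of which none was within 10 kb.

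Among the receptors, CCKBR resembled NPY at its start. The gene (ENSG00000110148, plus strand, chr11:6259806-6272127) had H3K27me3 over the start in both replicates, at chr11:6257649-6260843 with fold 5.26 and at chr11:6258254-6260893 with fold 5.36. Their percentiles were 77.9 and 79.2, and replicate 1 had a further, weak region inside the gene with fold 4.03. No FLI1 region lay within 10 kb.

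Both FLI1 loci of CCKBR that were in all 4 libraries lay in or beside other genes. The upstream one, in an intron of CNGA4 at chr11:6234275-6235654, had folds of 16.8 and 17.5 for set A, then 22.5 and 8.48 for set B. The downstream one, at chr11:6320576-6322887 in an intron of the long non-coding RNA gene ENSG00000282556 beside CAVIN3, had folds of 21.5 and 30.1 for set A, then 11.2 and 14.0 for set B. In their lists they ranked between percentiles 54.7 and 95.9. The longest GGAA run at their summits was 2 units and 1 unit. TGACTCA, the AP-1 motif, was within 250 bp of the downstream summit in all 4 libraries, beside 11.3% to 14.5% of all FLI1 summits.

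The downstream CCKBR locus was also the site of the only H3K27ac near this gene. Regions of fold 4.44 and 5.04 shared 271 and 200 bp with the FLI1 region of each library, and were also lost at a −log10 q-value of at least 5. H3K9me3 lay 273 to 829 bp from the same FLI1 region, over an exon of CAVIN3, with folds of 4.98 and 5.04. Another FLI1 locus, in an intron of FHIP1B at about -40.2 kb, was in set B only, with folds of 7.06 and 7.55. Runs of 4 units at chr11:6251341-6251356 and chr11:6299160-6299175 were in no FLI1 region.

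NPY1R (ENSG00000164128, minus strand, chr4:163323962-163344832) and NPY5R (ENSG00000164129, plus strand, chr4:163343892-163351934) are neighbours whose annotated bodies overlap at their starts. Their windows share most regions, so the 7 genes stand for 6 places in the genome. Their common FLI1 locus, at chr4:163391548-163392929 in intergenic sequence, had folds of 9.03 and 13.8 for set A, then 6.74 and 9.58 for set B. Its percentiles were 68.4, 85.3, 33.8 and 63.6, and it lay between -47.1 and -47.4 kb from the NPY1R start. No run of 3 or more GGAA units was found in the 50 kb windows of this pair.

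Nearer to the pair, FLI1 was called in a single library, set B replicate 1. That library had a region at chr4:163332626-163332842 with fold 11.2, inside NPY1R as annotated by GENCODE and just upstream of the RefSeq start at 163332596. It also had a region at chr4:163344157-163344403 with fold 5.40, over an untranslated exon of NPY5R. The other 3 libraries had no region within 10 kb of either gene. H3K9me3 was called downstream of NPY1R in both replicates, at chr4:163316900-163317938 with fold 5.59 and at chr4:163316684-163317364 with fold 5.41. Neither H3K27ac nor H3K27me3 was called within 50 kb of the pair.

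GRPR (ENSG00000126010, plus strand, chrX:16123565-16153518) had FLI1 regions of low rank, none of them in all 4 libraries. Set A replicates 1 and 2 had 1 region each near -46.0 and -46.3 kb, with folds of 5.36 and 5.08. Set B replicate 1 had 2 regions, with folds of 5.40 and 4.87, the first close to but not overlapping those of set A. Set B replicate 2 had none, and its nearest region was 98.7 kb from the start. All were in the lower part of their lists, at percentiles 27.6, 25.3, 14.4 and 8.12. H3K9me3 had 3 regions within 50 kb in replicate 1 and 0 in replicate 2, and the other 2 marks had none. A run of 5 TTCC units at chrX:16073838-16073857 was in no FLI1 region.

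**Figure D3:**
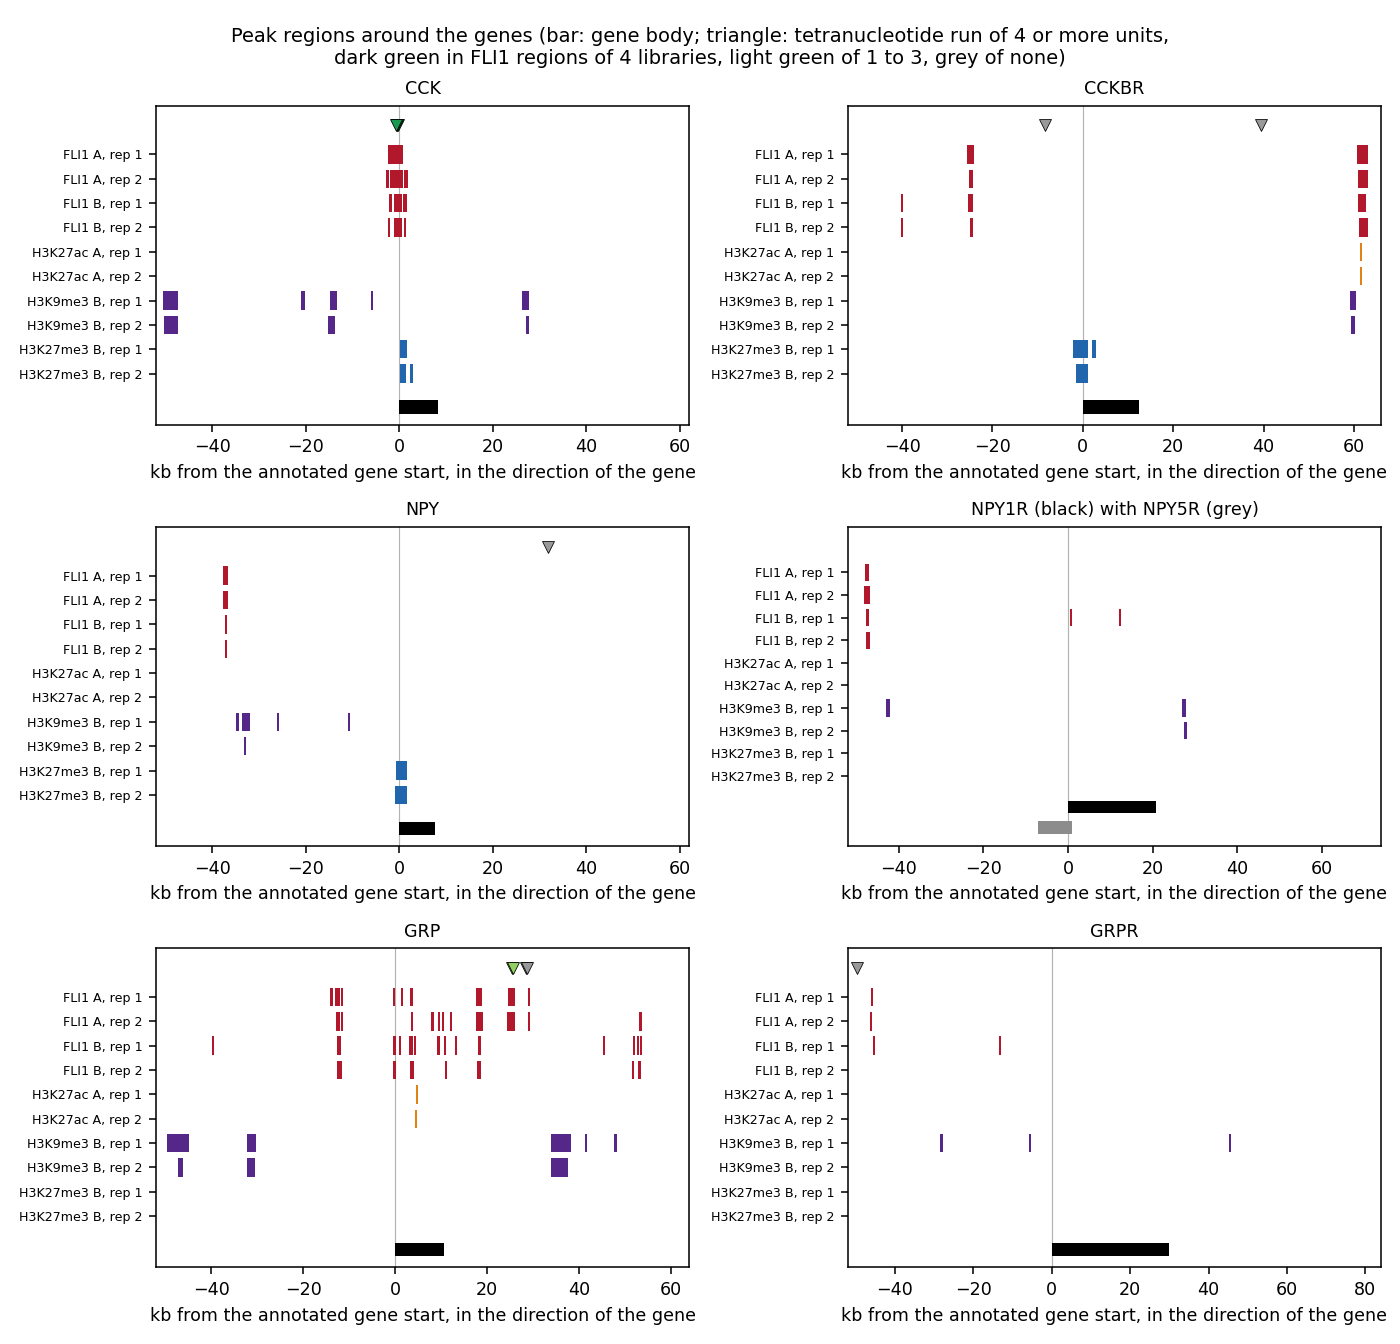
Peak regions of the 10 lists (rows) within 50 kb of each gene body, by distance in kb from the annotated start in the direction of the gene, with 1 panel for the overlapping pair NPY1R and NPY5R. FLI1 lies at the start of CCK, across GRP, and 20 kb or more from the start in every library at NPY, CCKBR and, but for set B replicate 1, the 3 other receptors.

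Ordered by the strongest FLI1 region within 50 kb, CCK and CCKBR led in every library, with percentiles of 83.1 to 95.3 and 82.8 to 95.9. GRP followed in set A, with 88.9 and 90.9, but was below NPY1R and NPY5R in set B, with 69.9 and 51.7. NPY1R and NPY5R ranged from 63.6 to 85.3 over the 4 libraries, and NPY from 43.0 to 79.2. The ranges of neighbours in this order overlap, except that GRPR, at 14.4 to 27.6 where it had a region, was below all others. The leading CCK region is at a repeat by the start, and the leading CCKBR regions are far from the start and at no long repeat.

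**Figure D4:**
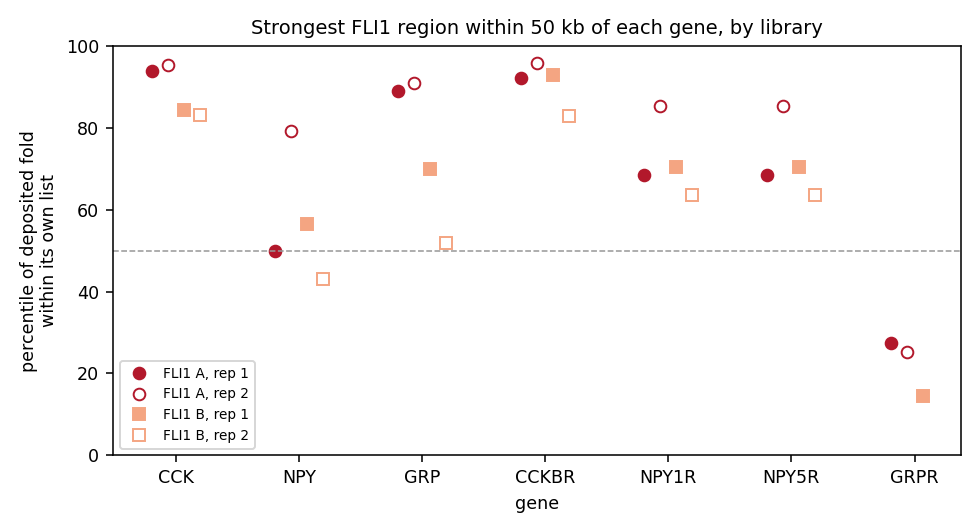
Percentile, within its own FLI1 list, of the fold of the strongest region within 50 kb (vertical axis) for each gene (horizontal axis) and library (symbols). CCK and CCKBR are at 82.8 or above in all 4 libraries, and GRPR is at 27.6 or below in the 3 libraries with a region.

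Neither CpG counts nor the 2 short motifs read around the annotated starts set the genes with H3K27me3 apart. In RefSeq promoters of GRCh38.p14, taken from 250 bases before to 50 bases after each start, all 7 genes were matched, with 9 starts. CpG counts were 29 for NPY, 21 for CCKBR and 13 and 5 for the 2 CCK starts. Genes without the mark were in the same range, with 27 for GRP, 27 and 37 for NPY5R, 16 for NPY1R and 6 for GRPR, beside a median of 21 over all promoters. CCGGAAGT, read on both strands, was in 0 of the 9 promoters and in 5.42% of all. GGAAGGAA was in 0 of the 9 and in 3.69% of all, since the CCK repeat begins farther upstream than this window.

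The wider neuropeptide pathway was followed with 47 other genes for ligands, receptors, processing enzymes and granule proteins. Within 10 kb, FLI1 was in all 4 libraries at 14 of the 47 (29.8%), against 28.6% of the 7 genes and 56.3% of all genes. H3K27ac in both replicates was found at 4 of 47 (8.51%), beside 28.3% of all genes. H3K27me3 in both was found at 24 of 47 (51.1%), beside 17.6% of all genes. H3K9me3 was in both replicates at 6 of 47 (12.8%), beside 25.3% of all genes. Within 1 kb of the start, H3K27me3 was in both replicates at 20 of 47 (42.6%), beside 9.47% of all genes. FLI1 was there in all 4 libraries at 2 of 47 (4.26%), beside 33.8% of all genes. These shares describe the list and were not tested.

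**Figure D5:**
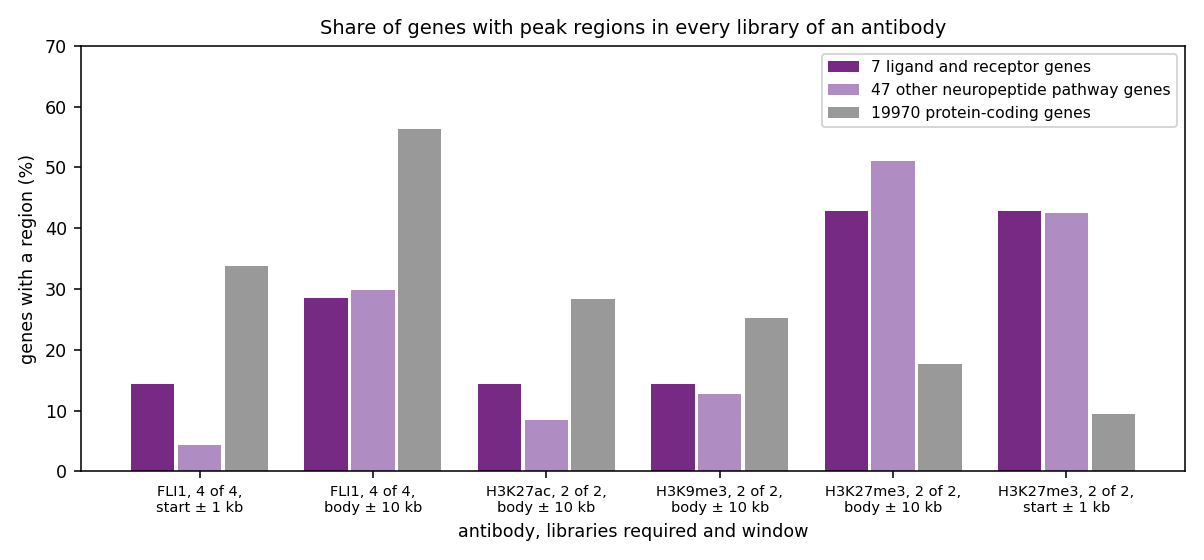
Share of genes (percent, from 0) with a region in every library of an antibody, for the 7 ligand and receptor genes, 47 other neuropeptide pathway genes and all 19970 protein-coding genes, by antibody and window (horizontal axis). H3K27me3 within 1 kb of the start is at 42.9% of the 7 genes, 42.6% of the pathway list and 9.47% of all genes, while in the windows plotted the FLI1 and H3K27ac shares are lower in both lists than over all genes.

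The pathway genes nearest in function to the 7 had their own FLI1 regions. CCKAR, the other cholecystokinin receptor, had FLI1 in all 4 libraries at a run of 15 GGAA units, with folds of 11.5, 7.61, 6.87 and 8.39. It was the single pathway gene with a repeat of at least 4 units at FLI1 summits of all 4 libraries within 10 kb (1.49% of all genes). NMB, which encodes the bombesin-like peptide neuromedin B, had the highest mean percentile of the list, 95.5, with folds of 21.6, 29.3, 30.6 and 29.0. Its receptor NMBR had folds of 11.1, 10.4, 20.3 and 10.0, and the orphan bombesin receptor BRS3 had 18.8, 9.33, 6.72 and 12.6, with H3K27ac in both replicates at folds of 4.12 and 6.38. NMB and NMBR were the 2 pathway genes where all 4 FLI1 libraries had a region less than 1 kb from the start. PYY, a relative of NPY, had folds of 12.5, 11.5, 27.9 and 15.8.

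Other pathway genes with FLI1 in all 4 libraries within 10 kb included 4 for granule proteins and processing enzymes. CHGB (chromogranin B) had folds of 14.5, 15.6, 13.6 and 13.7. VGF, a granule peptide precursor, had 11.2, 14.8, 21.5 and 8.27, and the convertase gene PCSK2 had 10.7, 11.2, 16.5 and 17.5. PAM, the peptide-amidating enzyme, had 10.9, 12.1, 10.6 and 9.78 and also H3K27ac in both replicates, with folds of 5.60 and 7.38. SSTR3, NTSR1 and VIPR1, receptors for somatostatin, neurotensin and vasoactive intestinal peptide, completed the 12 genes named by rank. GAST, the gastrin gene, and HCRT, the hypocretin gene, were the 2 others of the 14. SSTR3 ranged from 12.3 to 24.1, VIPR1 from 7.39 to 15.6 and NTSR1 from 5.08 to 31.5. The galanin receptor GALR2 and the tachykinin gene TAC3 had H3K27ac in both replicates without FLI1 in all 4 libraries. FLI1 of all 4 libraries and H3K27me3 of both replicates were found within 10 kb at 5 of 47 (10.6%), beside 5.88% of all genes. These were NTSR1, PCSK2, PYY, SSTR3 and VGF. Within 1 kb of the start, where CCK also met this rule, it held for 0 of 47.

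Of the pathway list, VGF and PCSK2 were most like CCK in numbers of regions within 10 kb over the 10 lists, with mean absolute differences of 0.26 and 0.36 on the scale of log2(regions + 1). NMB and PYY were the most like GRP, at 0.51 and 0.64. The 5 other genes had regions in fewer than 5 of the lists within 10 kb and were not ranked. Numbers of regions were not adjusted for gene length. The bodies of VGF and PCSK2 span 3.06 and 258 kb, beside 8.36 kb for CCK. Those of NMB and PYY span 3.4 and 51.7 kb, beside 10.6 kb for GRP.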

How the data were processed

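The 14 samples were grouped by antibody and set from their titles. The authors deposited 10 lists of peaks, a list for each antibody library, whose names describe them as called against the IgG library of the same number with duplicates removed and replicates not pooled. The submitters' processing notes name cutadapt 4.4, Bowtie2, Picard 2.17.11, MACS2 2.1.1 and hg38. Each list gives the authors' fold (a ratio to IgG), −log10 p-value and −log10 q-value, deposited per peak, and the deposited FLI1 and H3K27ac lists give a summit position. Reads, IgG signal and spike-in counts were not analysed here, and depth is unknown. The sequence at the CCK summits is not reported here.

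Peaks of the same list that overlapped were joined under the values of the peak with the lowest p-value, and chromosome Y was left out. Gene bodies came from GENCODE release 44. A region counted with at least 1 shared base, and a repeat with at least 4 GGAA or TTCC units within 250 bp of a summit. A locus joins overlapping regions of different libraries. The scripts (Python 3.11.15, numpy 2.4.6, pandas 2.3.3, pysam 0.24.0, samtools 1.23.1) were tested on simulated data. The text names all 7 genes and, of the pathway list, those with FLI1 in all 4 libraries within 10 kb (at most 12, by mean percentile of the strongest fold) or H3K27ac in both replicates (at most 6). Likeness used the mean absolute difference of log2(regions + 1). Alternatives covered a stricter q-value, repeat length and distance, transcript starts, left-out replicates and what counts as shared. The genes and lists were chosen with earlier results of these data known, so no test was made over them.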

Additional observations from a re-analysis of the deposited data

How the results depend on the processing

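Over 9 counts, 60 of 78 alternatives gave the same count or one within 1.5 times of it, and 18 moved it further. A −log10 q-value of at least 5 left 0 genes with H3K27ac within 10 kb and 0 within 50 kb, 0 with H3K9me3 within 10 kb and 2 within 50 kb, and 1 (NPY) with H3K27me3 in either window. At a −log10 q-value of at least 10 the counts were 1 for FLI1 within 10 kb, CCK, and 0 for each of the 3 marks in both windows, while FLI1 within 50 kb fell from 6 to 4. With windows around a transcript start, H3K27ac within 50 kb was found at 1 gene and H3K9me3 within 10 kb at 0. With repeats counted only within 100 bp of the summit, 0 genes had FLI1 at a repeat in all 4 libraries, since the CCK summits are 188 to 198 bp away. Leaving out 1 replicate gave 1 to 3 genes with H3K9me3 within 10 kb, with 3 (CCK, NPY1R and GRPR) without replicate 2. Regions of either H3K9me3 replicate, an alternative chosen after seeing the data, also gave 3. Leaving out FLI1 set B replicate 2 gave 7 genes within 50 kb, GRPR being added. No paired analysis was possible because the counts come from no test. Depth limits what was not detected.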

Other observations

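Genome-wide, few genes share the layout seen at the start of CCK. At 8 genes, a FLI1 region with a run of at least 4 units at its summit reached within 1 kb of the start in all 4 libraries. These were CCK, CACNA1I, COQ10A, DPF3, GUCY2F, KCNE3, NR0B1 and SLC23A2. CACNA1I encodes a T-type calcium channel, KCNE3 a potassium channel subunit and NR0B1 an orphan nuclear receptor known as an EWSR1::FLI1 target. H3K27ac was found in both replicates within 1 kb of the start at 0 of these 8 genes, beside 11.3% of all genes. So few genes cannot set this group apart from that share. A separate group of 26 genes had FLI1 in all 4 libraries and H3K27me3 in both replicates within 1 kb of the start, among them SCTR, the secretin receptor gene, and the transcription factor genes SOX1, HOXD1 and FOXA3. CCK was the 1 gene in both groups.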
